A study of Homo sapiens with 22 samples.

Results

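The 9 genes described here encode secreted complement and acute-phase proteins: the complement proteases C1R and C1S, the complement components C3 and CFB, the complement inhibitor SERPING1, the broad protease inhibitor A2M, the copper-carrying ferroxidase CP (ceruloplasmin), the siderophore-binding protein LCN2 and serum amyloid A1 (SAA1). They are 9 of the 35237 genes in a table of RNA-seq read counts and were found by symbol. The set was chosen by measured values as well as by function: it was selected on A2M being higher and CP lower in treated than in untreated SK-N-AS. Every value of the 9 genes in treated against untreated SK-N-AS is therefore given as a description, without a p-value, and nothing is supported with it. The same holds for A2M and CP in any comparison that uses SK-N-AS libraries.

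The samples come from 2 human neuroblastoma lines, SK-N-AS and GIMEN, that the labels assign to the mesenchymal (MES) state. Untreated SK-N-AS (4 libraries) grew in DMEM with 10% fetal bovine serum. The first step, S1D4 (4 libraries), was 4 days of 5 µM PP121, a multi-kinase inhibitor, in medium with 1% serum. Cells from that step were then moved to serum-free Neurobasal medium with B27, 5 µM PP121 and 100 nM bufalin, an inhibitor of the sodium-potassium pump, and were taken after 4 days (S2D4, 4 libraries) or 30 days (S2D30, 4 libraries). Untreated GIMEN (3 libraries) grew in RPMI with 10% serum. GIMEN D30 (3 libraries) had 30 days of 2.5 µM PP121 and 10 nM bufalin in RPMI with 1% serum. Each treated group thus differs from its untreated control in serum as well as in drugs, and S2D4 differs from S1D4 in base medium, serum, bufalin and time, so these cannot be told apart. The labels do not say that replicates were separate cultures, so p-values measure only the spread between these libraries.

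Complement is a cascade of plasma proteins. In the classical pathway C1R and C1S are the proteases of the first complex, which SERPING1 inactivates. All pathways meet at the cleavage of C3, and CFB supplies the protease of the alternative pathway's C3 convertase. The liver makes most of these proteins, and many other cells make them locally. Acute-phase genes such as SAA1, CP, C3 and LCN2 are known to be induced by interleukin-1 and interleukin-6 through the transcription factors NF-kappa-B, C/EBP and STAT3.

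Libraries held between 16456484 and 37506800 counts. Levels are CPM, counts scaled to a common library size, on one scaling of all 22 libraries, and are not corrected for gene length, so they compare a gene between libraries and not one gene with another. Hepatocyte markers summed to at most 1.05 CPM in any library, and ALB, APOB and AHSG were at no more than 3 counts per library in untreated SK-N-AS. The 8 leukocyte markers summed to 159.9 to 208 CPM in untreated SK-N-AS and to 4.55 to 7.38 CPM in S2D30. In the untreated libraries nearly all of it was PTPRC, while AIF1 and CD3E stayed at 3 counts or fewer in every SK-N-AS library. Adrenergic markers, which define the other neuroblastoma state, summed to 1460 to 1666 CPM in untreated SK-N-AS and 176 to 220 CPM in S2D30. Mesenchymal markers summed to 939 to 1482 CPM in untreated SK-N-AS and 2970 to 3687 CPM in S2D30, and to 37550 to 39130 CPM in untreated GIMEN and 20470 to 23530 CPM in GIMEN D30. In GIMEN D30, endothelial markers summed to 24.8 to 30.6 CPM against 4.27 to 4.74 CPM untreated, with VWF and CDH5 at 3 counts or fewer. Schwann and glial markers summed to at most 8.11 CPM. The part of these other cell-type markers in the results was not tested, and in bulk RNA fewer cells of a type and less RNA per cell cannot be told apart.

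Within untreated SK-N-AS and S1D4, replicates 1 and 2 stood apart from replicates 3 and 4 for several of the 9 genes. Mean C3 in S1D4 was 18.8 CPM in replicates 1 and 2 and 6.10 CPM in replicates 3 and 4. S2D4 replicate 4 stood above the other S2D4 libraries for C1R, C1S, C3, CFB and SERPING1. Where leaving out a library moved a member's value by more than 1.5 times or ended its call, the value without it stands beside the result.

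C1R, the protease that activates C1S within the first complement complex, was high in untreated and S1D4 SK-N-AS and low afterwards. Untreated libraries held 28.2, 25.2, 22.3 and 21.0 CPM, and S1D4 libraries 21.4, 18.6, 23.4 and 22.7 CPM. S2D4 libraries held 4.19, 4.94, 5.65 and 10.8 CPM, and S2D30 libraries 3.77, 5.12, 4.39 and 3.47 CPM. The first pair of groups overlapped, the second pair overlapped, and no S2D4 or S2D30 library reached any library of the first pair. From S1D4 to S2D4, C1R fell by 1.74 on the log2 scale (SE 0.23, edgeR quasi-likelihood test, adjusted p = 8.98e-06). From S2D4 to S2D30 it fell by a further 0.63 (SE 0.24, edgeR adjusted p = 0.0362), but without S2D4 replicate 4 the difference was -0.24 (edgeR adjusted p = 0.226). This call was also lost without S2D30 replicate 1, 3 or 4 (edgeR adjusted p = 0.0872, 0.0581 and 0.0997) and when the pair of groups was fitted alone (edgeR adjusted p = 0.109).

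In GIMEN, C1R fell as well. Untreated libraries held 4.49, 4.76 and 4.35 CPM and D30 libraries 1.06, 1.27 and 1.41 CPM, with no overlap. The change was -1.89 on the log2 scale (SE 0.23, edgeR adjusted p = 1.61e-05), a level 3.70-fold lower. C1RL, the neighbouring gene that shares 11.4% of C1R's exonic bases, went the other way in GIMEN, with a log2 difference of 0.60. In SK-N-AS C1RL fell with C1R, by 0.97 from S1D4 to S2D4 and then by 0.70.

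C1S, the protease that cleaves C4 and C2, did not follow C1R throughout. Untreated SK-N-AS held 7.32, 6.82, 3.05 and 3.60 CPM, S1D4 8.35, 7.77, 8.60 and 10.9 CPM, S2D4 2.23, 2.98, 2.16 and 4.99 CPM, and S2D30 4.78, 5.88, 7.52 and 7.60 CPM. S1D4 was above every untreated and S2D4 library, and S2D30 overlapped the untreated libraries. C1S fell by 1.52 on the log2 scale from S1D4 to S2D4 (SE 0.31, edgeR adjusted p = 0.000534). It rose by 1.04 from S2D4 to S2D30 (SE 0.31, edgeR adjusted p = 0.00932), the opposite direction to C1R. In GIMEN the C1S groups overlapped, 2.78, 1.72 and 1.36 CPM untreated against 2.11, 1.52 and 2.44 CPM at D30, and the log2 difference was 0.02 (SE 0.32, edgeR adjusted p = 0.954).

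C3, the component on which all complement pathways converge, was low in untreated SK-N-AS and highest in S2D30. Untreated libraries held 1.31, 1.09, 0.334 and 0.946 CPM, and S1D4 libraries 17.2, 20.3, 5.86 and 6.34 CPM. S2D4 libraries held 3.49, 2.88, 3.48 and 5.73 CPM, and S2D30 libraries 57.3, 56.5, 50.4 and 54.1 CPM. None of the 4 groups overlapped another: the order was untreated, S2D4, S1D4 and S2D30. Between S2D4 and S1D4 the nearest libraries, 5.73 and 5.86 CPM, were almost at one level.

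The course of C3 was therefore up, down and up again. Mean C3 was 0.921 CPM in untreated cells and 3.90 CPM in S2D4. Against untreated cells C3 stood 3.66 higher on the log2 scale in S1D4 (SE 0.42) and 5.79 higher in S2D30 (SE 0.44), the latter a 55.3-fold level. C3 fell by 1.66 from S1D4 to S2D4 (SE 0.37, edgeR adjusted p = 0.00112). The size of this fall depends on the S1D4 libraries: their mean was 18.8 CPM in replicates 1 and 2 and 6.10 CPM in replicates 3 and 4. Both lay above the S2D4 mean of 3.90 CPM. C3 then rose by 3.79 from S2D4 to S2D30 (SE 0.38, edgeR adjusted p = 5.64e-07), a 13.8-fold change.

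GIMEN held little C3. The counts were 5, 4 and 3 in untreated libraries and 30, 22 and 8 at D30, or 0.258, 0.196 and 0.169 CPM against 1.76, 1.40 and 0.514 CPM, with no overlap. C3 did not pass the filter on low counts in this line. With no filter the log2 difference was 2.46 (SE 0.59, edgeR adjusted p = 0.000199). All D30 libraries of GIMEN were below every S1D4, S2D4 and S2D30 library of SK-N-AS.

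CFB, the alternative-pathway protease precursor, was higher at 30 days in both lines. Untreated SK-N-AS held 4.55, 3.98, 2.05 and 2.47 CPM, and S1D4 16.6, 17.8, 9.74 and 12.2 CPM. S2D4 held 3.54, 3.09, 4.00 and 8.10 CPM, and S2D30 12.1, 10.2, 10.5 and 10.3 CPM. S2D4 overlapped the untreated libraries, S2D30 overlapped S1D4, and the former pair lay below the latter. CFB fell by 1.58 on the log2 scale from S1D4 to S2D4 (SE 0.30, edgeR adjusted p = 0.000303) and rose by 1.19 from S2D4 to S2D30 (SE 0.30, edgeR adjusted p = 0.00325). These are the directions of C3, with smaller folds.

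In GIMEN, CFB libraries held 4.12, 3.58 and 3.56 CPM untreated and 18.3, 15.9 and 17.7 CPM at D30. The groups did not overlap, and CFB rose by 2.17 on the log2 scale (SE 0.13, edgeR adjusted p = 4.76e-08), 4.51-fold. CFB reads need care. Exons of C2 and of a C2-CFB readthrough transcript overlap 45.5% of CFB's exonic bases on the same strand. C2 stood at 4.07 ± 0.16 CPM (SD, n = 4) in S2D30 and 0.73 ± 0.14 CPM (SD, n = 4) in untreated SK-N-AS.

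Promoter sequence of CFB, C1R and LCN2, the members listed in the RefSeq promoter table (GRCh38.p14), is shown because the transcription factors named above are known to act on acute-phase promoters. The 250 bases before the start site were searched on both strands for C/EBP (TTGCNNAA), STAT (TTCNNNGAA) and NF-kappa-B by its consensus. Capitals mark the matches. CFB, at chr6:31945845-31946094 on the plus strand, held an NF-kappa-B match 112 bases before the start and a STAT match at 92. LCN2, at chr9:128149203-128149452 on the plus strand, held an NF-kappa-B match at 175 and a C/EBP match at 143. C1R has 2 listed starts. The upstream one, at chr12:7092446-7092695 on the minus strand, held a C/EBP match at 106, and the other, at chr12:7091894-7092143 on the minus strand, a C/EBP match at 167 and a STAT match at 86.
CFB: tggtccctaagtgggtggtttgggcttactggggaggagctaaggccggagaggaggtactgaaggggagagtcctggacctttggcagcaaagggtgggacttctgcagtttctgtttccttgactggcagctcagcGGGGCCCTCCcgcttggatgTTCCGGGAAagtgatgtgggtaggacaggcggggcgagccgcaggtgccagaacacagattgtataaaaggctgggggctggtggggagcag
LCN2: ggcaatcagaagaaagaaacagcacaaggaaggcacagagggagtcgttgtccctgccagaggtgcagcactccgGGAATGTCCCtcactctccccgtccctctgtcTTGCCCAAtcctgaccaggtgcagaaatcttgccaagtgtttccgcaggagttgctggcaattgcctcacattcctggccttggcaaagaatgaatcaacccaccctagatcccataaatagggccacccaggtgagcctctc
C1R, upstream start: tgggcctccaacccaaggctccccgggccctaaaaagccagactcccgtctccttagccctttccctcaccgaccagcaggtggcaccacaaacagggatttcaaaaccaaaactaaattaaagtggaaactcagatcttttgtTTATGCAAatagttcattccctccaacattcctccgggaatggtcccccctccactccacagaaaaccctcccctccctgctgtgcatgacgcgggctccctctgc
C1R, downstream start: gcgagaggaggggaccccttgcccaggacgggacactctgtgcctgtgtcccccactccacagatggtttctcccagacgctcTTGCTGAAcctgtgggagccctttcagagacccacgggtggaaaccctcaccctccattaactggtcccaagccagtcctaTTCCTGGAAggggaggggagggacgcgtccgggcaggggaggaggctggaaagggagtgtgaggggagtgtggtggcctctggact

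Of 35116 promoters of that length, 9.96% held the NF-kappa-B motif, 9.05% C/EBP and 6.57% STAT. A match describes letters in the sequence and is neither a bound site nor a cause of any level here. LCN2, with an NF-kappa-B and a C/EBP match, had at most 2 counts in any library, while CFB, with an NF-kappa-B and a STAT match, was measured in all 22.

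SERPING1, the inhibitor of C1R and C1S, was the member with the largest fall over the last SK-N-AS step. Untreated libraries held 49.5, 42.0, 30.3 and 22.7 CPM, and S1D4 libraries 69.4, 65.0, 37.3 and 37.6 CPM. S2D4 libraries held 15.9, 17.5, 16.2 and 35.2 CPM, and S2D30 libraries 1.31, 0.819, 1.31 and 0.608 CPM. S1D4 overlapped the untreated libraries, S2D4 replicate 4 reached into the untreated range, and S2D30 lay far below all others.

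SERPING1 fell by 1.31 on the log2 scale from S1D4 to S2D4 (SE 0.30, edgeR adjusted p = 0.00164). From S2D4 to S2D30 it fell by 4.38 (SE 0.39, edgeR adjusted p = 1.33e-07), to a level 20.9-fold lower. C3 rose over the same step. GIMEN held 0.516, 0.638 and 0.452 CPM untreated and 0.235, 0.317 and 0.321 CPM at D30. These groups did not overlap, but the gene was below the filter there. With no filter the log2 difference was -0.93 (SE 0.67, edgeR adjusted p = 0.277).

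A2M, a plasma inhibitor that traps proteases of all classes, was at 4 to 13 counts per library in untreated SK-N-AS and far higher in S2D30. Untreated libraries held 0.321, 0.262, 0.525 and 0.122 CPM, S1D4 0.321, 0.800, 0.675 and 0.709 CPM, and S2D4 1.49, 1.19, 2.21 and 0.745 CPM. S2D30 libraries held 32.7, 39.5, 32.7 and 33.9 CPM. Neighbouring groups overlapped up to S2D4, and S2D30 stood far above. The distance of S2D30 from untreated cells was 6.82 on the log2 scale (SE 0.36), a 113-fold level, and that of S1D4 only 1.04 (SE 0.42).

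Most of the A2M difference lay between day 4 and day 30 of the second step. A2M stood 4.64 higher in S2D30 than in S2D4 (SE 0.30), 24.9-fold. In S2D4 it stood 1.15 higher than in S1D4 (SE 0.35), or 0.84 without S2D4 replicate 3. GIMEN held more A2M before treatment than SK-N-AS did after it: 65.8, 64.1 and 63.9 CPM untreated and 105, 122 and 133 CPM at D30. GIMEN groups did not overlap, and A2M rose by 0.86 on the log2 scale (SE 0.08, edgeR adjusted p = 2.79e-06), 1.82-fold. An antisense gene, A2M-AS1, covers 8.79% of A2M's exonic bases and is not analysed here.

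CP, the copper-carrying ferroxidase that oxidises exported iron, was lower in every treated SK-N-AS library than in any untreated one. Untreated libraries held 30.0, 27.6, 10.3 and 13.2 CPM, S1D4 1.41, 1.03, 0.337 and 0.754 CPM, S2D4 0.279, 0.217, 0 and 0.0324 CPM, and S2D30 0.570, 0.307, 0.408 and 0.304 CPM. S2D4 lay below S1D4 and S2D30, and S2D30 overlapped S1D4. The distance from untreated cells was -4.54 in S1D4 (SE 0.47), -7.36 in S2D4 (SE 0.60) and -5.69 in S2D30 (SE 0.52) on the log2 scale. Without S2D4 replicate 1 that of S2D4 was -8.08.

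Between the steps, S2D4 differed from S1D4 by -2.82 (SE 0.69) in CP, or by -3.54 without S2D4 replicate 1. S2D30 differed from S2D4 by 1.67 (SE 0.78), or by 2.39 without S2D4 replicate 1. In GIMEN, CP had at most 4 counts in any library. HPS3 overlaps 19.4% of CP's exonic bases on the opposite strand, and whether counting used strand is not given in the sources used here.

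SAA1 and LCN2, which are strongly induced acute-phase genes in liver and epithelia, were barely detected. SAA1 had at most 1 count in untreated and S1D4 SK-N-AS libraries, 1 to 4 counts in S2D4 and 2 to 8 counts in S2D30, and 0 in every GIMEN library. LCN2 had at most 2 counts in any library. A limit of 3 counts is 0.0742 to 0.163 CPM in SK-N-AS and 0.147 to 0.193 CPM in GIMEN, counting error only. SAA1 shares 35% of its 75-base words with SAA2 and the SAA2-SAA4 readthrough, so its few reads are uncertain. SAA2 had 2 to 14 counts in S2D30. With no filter, the SAA1 difference between S2D4 and S1D4 was 2.72 (SE 1.09, edgeR adjusted p = 0.062).

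**Figure D1:**
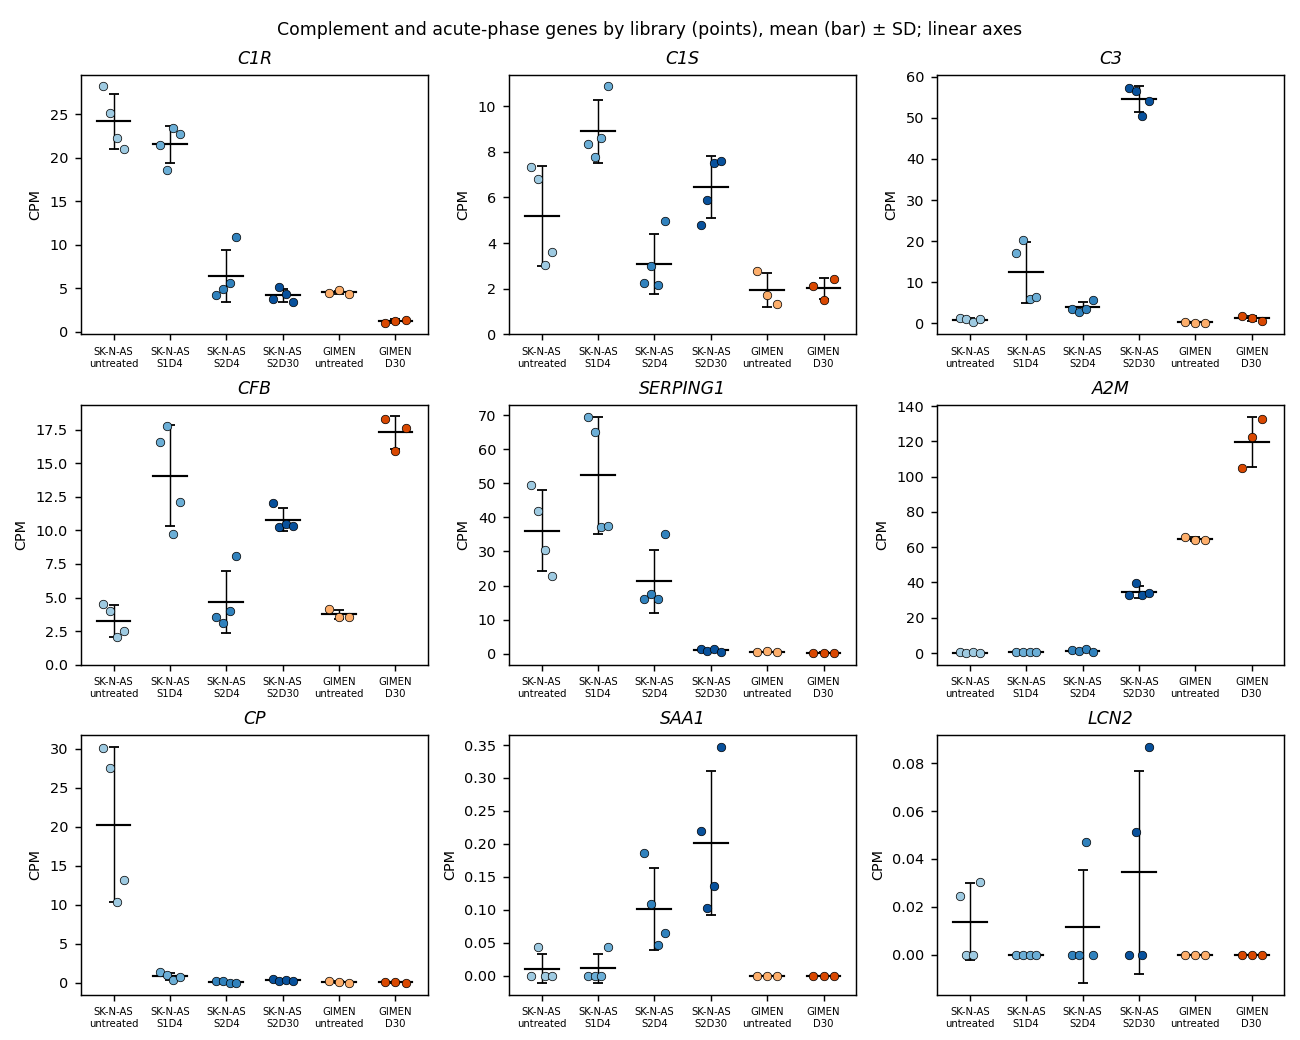
CPM (linear axes) of the 9 genes in each of the 22 libraries, by group, 1 panel per gene, with 1 point per library, the mean as a bar and the SD as whiskers. C3 goes up, down and up again over the SK-N-AS groups, SERPING1 in S2D30 lies at 0.608 to 1.31 CPM, and A2M in untreated GIMEN (63.9 to 65.8 CPM) lies above A2M in S2D30 (32.7 to 39.5 CPM).

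Set side by side, the steps differed in direction. From S1D4 to S2D4, edgeR called C1R, C1S, C3, CFB and SERPING1 lower. Of all 15810 genes tested 55.1% changed, 26.8% falling and 28.3% rising. CP also stood lower and A2M higher, without a test. The median log2 difference of the 7 members was -1.58, against 0.018 over all genes tested. From S2D4 to S2D30, C3, CFB and C1S were called higher and C1R and SERPING1 lower. Of all genes 51.3% changed, 24.4% rising and 26.9% falling. A2M and CP stood higher, without a test, and the median of the 7 members was 1.19 against -0.018. The 2 steps share the S2D4 libraries, so a low or high S2D4 level enters both with opposite sign. Without S2D4 replicate 4 or S2D30 replicate 1, 3 or 4 only SERPING1 was called lower from S2D4 to S2D30. A2M and CP are in these medians as a description.

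In GIMEN 4 members passed the filter on low counts. Of these, 2 rose (A2M and CFB), 1 fell (C1R) and C1S did not pass, where 71.4% of all 13517 genes tested changed, 35.5% rising and 36% falling. Against untreated SK-N-AS, the direction of these calls is a description only: edgeR called 2 of 7 members higher and 1 lower in S1D4 (17.6% and 22.4% of all genes, 40.1% in either direction), 2 higher and 4 lower in S2D4 (30.9% and 32.2%, 63.1% in either direction; only 2 lower without untreated replicate 1 or 2 or S2D4 replicate 1, 2 or 3), and 3 higher and 3 lower in S2D30 (33.8% and 36.5%, 70.3% in either direction). The 3 comparisons share the untreated libraries. Doses, base medium and serum differ between SK-N-AS S2D30 and GIMEN D30, and the difference between the lines' responses was not tested.

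**Figure D2:**
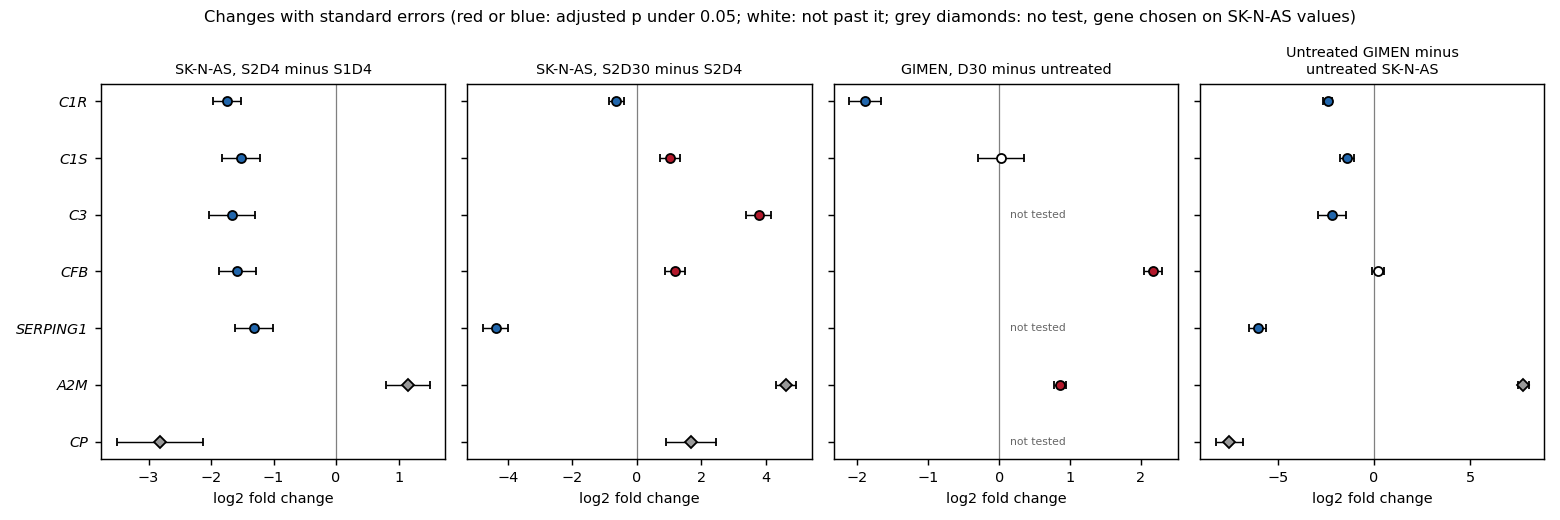
Log2 fold change of each gene over the 2 SK-N-AS steps, in GIMEN D30 against untreated, and between the untreated lines, with bars of 1 standard error. Red and blue points have an adjusted p under 0.05, white points do not, and grey diamonds (A2M and CP with SK-N-AS libraries) carry no test. SERPING1 and C3 lie on opposite sides of 0 in S2D30 minus S2D4 (-4.38 and 3.79), and CFB lies at 2.17 in GIMEN.

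Before any treatment edgeR called C1R, C1S, C3 and SERPING1 lower in GIMEN than in SK-N-AS. Of all 16610 genes tested 71.2% differed, 33.1% higher and 38.1% lower. A2M, higher in GIMEN, and CP, lower there, carry no test. A2M was 217-fold higher in untreated GIMEN than in untreated SK-N-AS, a log2 difference of 7.76 (SE 0.28). SERPING1 was 66.5-fold lower in GIMEN (-6.05, SE 0.44, edgeR adjusted p = 7.08e-11). C1R differed by -2.41 (SE 0.24, edgeR adjusted p = 1.25e-08) and C1S by -1.41 (SE 0.35, edgeR adjusted p = 0.0011).

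CP differed by -7.53 (SE 0.70), or by -8.42 without GIMEN replicate 1, at no more than 4 counts per GIMEN library. C3 differed by -2.17 (SE 0.73, edgeR adjusted p = 0.0112). Apart from A2M and CP, CFB was the member without a call: 0.19 (SE 0.30, edgeR adjusted p = 0.586), with the untreated lines at 2.05 to 4.55 and 3.56 to 4.13 CPM. The lines were grown in different media, so line and medium cannot be told apart. S2D30 and untreated GIMEN both had high A2M with low CP, SERPING1 and C1R, but C3 was at 50.4 to 57.3 CPM in S2D30 and under 0.26 CPM in untreated GIMEN.

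The rest of the complement and acute-phase pathways was read from 10 lists of 133 genes. Over all lists, 56 of 85 genes tested were called higher and 10 lower in S2D30 against untreated SK-N-AS, with a median log2 difference of 1.03 against -0.034 for all genes tested. In GIMEN, 33 of 72 were called higher and 13 lower, with a median of 0.46 against 0.016. Over all genes tested, 33.8% were higher and 36.5% lower in S2D30, and 35.5% higher and 36% lower in GIMEN, and each list's counts are read against these shares. The lists were written with results of these data known and are not independent evidence of a direction.

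Among classical and lectin pathway genes, 7 of 9 tested were higher and 1 lower in S2D30, against 33.8% and 36.5% of all genes, and 2 of 5 were higher in GIMEN, near the 35.5% of all genes. C4A and C4B, the component cleaved by C1S, stood at 65.8 ± 7.2 and 94.9 ± 10.1 CPM (SD, n = 4) in S1D4 and at 19.0 ± 3.2 and 20.9 ± 7.6 CPM (SD, n = 4) in untreated cells. The 2 genes are near-identical copies, with 92.2% and 89.1% of their 75-base words shared, so their split is uncertain. C2 rose by 2.31 from S2D4 to S2D30 on the log2 scale.

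Of 5 alternative and terminal pathway genes tested, 1 was higher and 0 lower in S1D4 (17.6% and 22.4% of all genes). In S2D4 1 was higher and 4 lower (30.9% and 32.2% of all genes), and in S2D30 1 was higher and 2 lower. C7, a subunit of the membrane attack complex, went from 42.8 ± 3.7 CPM (SD, n = 4) in untreated cells to 0.314 ± 0.312 CPM (SD, n = 4) in S2D30. From S2D4 to S2D30 alone C7 fell by 3.98 on the log2 scale (SE 0.48, edgeR adjusted p = 3.94e-06). Without S2D30 replicate 2 the difference was -4.85. C5, which starts that complex, fell in both lines, by 1.52 in S2D30 and by 1.66 in GIMEN.

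Of 10 complement regulators tested, 5 were higher and 1 lower in S2D30, and 4 higher and 2 lower in GIMEN, near the 35.5% of all genes that were higher there. CD55, the membrane protein that breaks up C3 convertases, climbed through 1.57 ± 0.16 CPM untreated, 14.0 ± 1.2 in S1D4, 82.3 ± 21.4 in S2D4 and 294.7 ± 15.3 CPM in S2D30 (SD, n = 4 each). CD55 rose by 1.84 from S2D4 to S2D30 (SE 0.15, edgeR adjusted p = 4.52e-08). GIMEN went from 3.44 ± 0.45 to 60.3 ± 18.9 CPM CD55 (SD, n = 3), a rise of 4.09 (SE 0.22, edgeR adjusted p = 2.13e-08).

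CD59, which blocks the membrane attack complex, stood at 61.7 ± 8.7 CPM (SD, n = 4) untreated and 489.8 ± 11.1 CPM (SD, n = 4) in S2D30. CD46, a cofactor for C3b cleavage, rose in both lines, by 1.71 in S2D30 and 1.44 in GIMEN. SUSD4, an inhibitor of the C3 convertases, was low, with means of 0.0109 CPM untreated, 0.876 in S2D4 and 0.163 in S2D30. It stood 3.56 higher in S2D30 than in untreated cells (SE 1.05), with overlapping libraries, and fell by 2.42 from S2D4 to S2D30.

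Among complement receptors, 5 of 8 were higher and 2 lower in S2D30 and 2 of 7 were higher and 2 lower in GIMEN, no more than the 35.5% and 36% of all genes. ITGAX, the alpha chain of an integrin that binds cleaved C3, stood at 0.329 ± 0.177 CPM (SD, n = 4) untreated and 25.4 ± 3.4 CPM (SD, n = 4) in S2D30. In GIMEN ITGAX rose by 5.28 (SE 0.61, edgeR adjusted p = 1.14e-05), and by 4.45 without D30 replicate 1. ITGB2, the beta chain of that integrin, was low. It stood at 0.660 ± 0.217 CPM untreated and 0.418 ± 0.187 CPM in S2D30 (SD, n = 4 each, edgeR adjusted p = 0.208). In GIMEN it had at most 3 counts in any library. C3AR1, a receptor for a C3 fragment, went in opposite directions, up by 3.53 in S2D30 and down by 2.56 in GIMEN.

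Other acute-phase genes were mostly too low to test: 6 of 19 positive and 3 of 8 negative acute-phase genes passed the filter in SK-N-AS. In S2D30, 2 of the 6 and 3 of the 3 were higher, and the first of these shares is near the 33.8% of all genes. SERPINA1, the neutrophil elastase inhibitor, fell by 1.35 on the log2 scale in GIMEN, from 116 ± 4 to 46.5 ± 6.1 CPM (SD, n = 3). In SK-N-AS its highest library held 1.72 CPM.

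In the A2M family and receptor list, 4 of 4 rose from S2D4 to S2D30, where 24.4% of all genes rose. From S1D4 to S2D4, 3 of 4 fell, where 26.8% of all genes fell. Both counts use the S2D4 libraries, so a low S2D4 level enters both. LRP1, the receptor that clears A2M-protease complexes, stood at 35.8 ± 4.5 CPM (SD, n = 4) in S2D4 and 125 ± 23 CPM (SD, n = 4) in S2D30, and untreated cells held 135 ± 48 CPM (SD, n = 4). S2D30 differed from untreated cells by -0.14 in LRP1 on the log2 scale (SE 0.18, edgeR adjusted p = 0.505). In GIMEN, LRP1 rose by 0.71 and 2 of the 4 genes rose. Iron and copper genes, which act beside CP and LCN2, had 6 of 10 higher and 3 lower in S2D30, and 4 of 11 higher and 3 lower in GIMEN, near the 35.5% and 36% of all genes. Ferritin heavy chain FTH1 rose by 2.15 and light chain FTL by 1.69 from S2D4 to S2D30. The iron exporter SLC40A1, which works with ferroxidases such as CP, fell in both lines, to at most 4 counts per S2D30 library and at most 6 per GIMEN D30 library.

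Cytokines and receptors known to induce acute-phase genes were called higher in 10 of 14 and lower in 1 of 14 in S2D30 (33.8% and 36.5% of all genes), and in 9 and 1 of 12 in GIMEN (35.5% and 36%). IL1B stood at 0.332 ± 0.263 CPM untreated, 14.7 ± 2.4 in S1D4, 202.7 ± 118.9 in S2D4 and 788.7 ± 126.9 CPM in S2D30 (SD, n = 4 each). IL1B thus rose at each step. TNF, in the same list, stood at 0.034 ± 0.042 CPM untreated, 7.12 ± 6.26 in S1D4, 0.255 ± 0.259 in S2D4 and 0.070 ± 0.030 CPM in S2D30 (SD, n = 4 each). The part of either cytokine in the levels of the 9 genes was not tested. LIF, a cytokine of the interleukin-6 family, rose from 4.60 ± 1.75 CPM untreated to 1964 ± 484 CPM in S2D30 (SD, n = 4). IL6 had 0 counts in every untreated SK-N-AS library and 51 to 53 counts in S2D30, at least 21.5-fold higher against a floor of 3 counts per library. In GIMEN IL6 fell by 1.91 (SE 0.35, edgeR adjusted p = 0.000471).

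Transcription factors and feedback genes of these pathways were called higher in 14 of 16 and lower in none in S2D30, where 33.8% of all genes were higher, and in 9 and 2 of 15 in GIMEN. CEBPB, a C/EBP factor, rose by 1.998 from S1D4 to S2D4 and by 0.95 from S2D4 to S2D30, and by 2.27 in GIMEN. CEBPD, another, fell by 1.66 from S2D4 to S2D30 (SE 0.37, edgeR adjusted p = 0.00129). Mean SOCS3, a feedback gene of STAT3, was 13.7 CPM untreated, 54.8 in S1D4, 20.0 in S2D4 and 10.7 CPM in S2D30. In GIMEN SOCS3 fell by 0.98. NFKB2, an NF-kappa-B subunit, stood at 37.1 ± 3.8 CPM untreated, 134 ± 51 in S1D4, 78.6 ± 18.6 in S2D4 and 326.6 ± 11.04 CPM in S2D30 (SD, n = 4 each). NFKB2 fell by 0.78 from S1D4 to S2D4 (SE 0.21, edgeR adjusted p = 0.00457). These groups overlapped, at 90.1 to 188.3 and 67.7 to 106.4 CPM. In S1D4, log2 CPM of NFKB2 was 7.38 and 7.56 in replicates 1 and 2 and 6.52 and 6.50 in replicates 3 and 4. The highest S2D4 library was at 6.73. NFKB2 rose by 2.05 from S2D4 to S2D30 (SE 0.21, edgeR adjusted p = 7.5e-07). By group means that is the up, down and up order of C3 and CFB, and a part of NFKB2 in their levels was not tested.

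**Figure D3:**
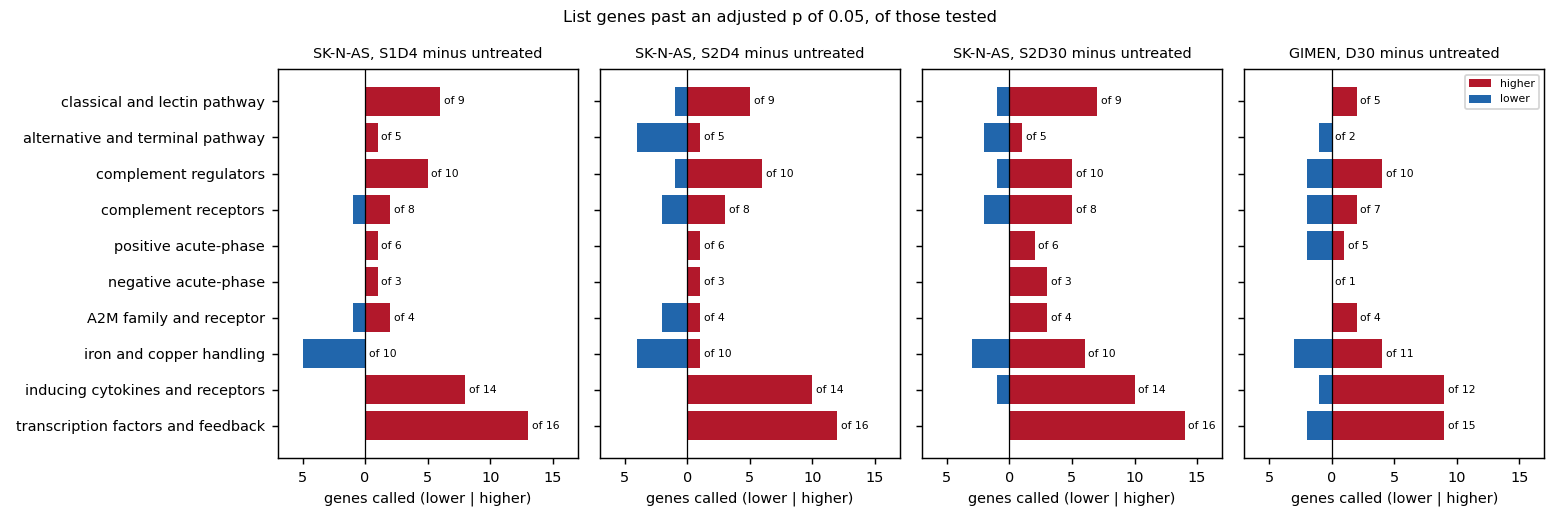
Number of genes in each of the 10 pathway lists called higher or lower (edgeR, adjusted p under 0.05) in S1D4, S2D4, S2D30 and GIMEN D30 against untreated cells, with the number tested beside each bar. Transcription factors (14 of 16 higher in S2D30) and cytokines (10 of 14) have the most genes called higher, and alternative and terminal pathway genes go from 0 lower in S1D4 to 4 of 5 in S2D4 and 2 of 5 in S2D30.

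Likeness to each member was measured as Pearson's r of log2 CPM over the 22 libraries, among 13954 genes with a mean of at least 1 CPM. The libraries fall into 6 groups and share the differences between groups and lines, so r is a description and has no p. Closest to C3 were NFKB2 (r = 0.970, Spearman 0.96), NFKBIE (0.950) and RRAD (0.950). Closest to A2M were CPPED1 (0.981), SLFN5 (0.977) and RAB13 (0.976), and closest to CP were TTC8 (0.957), ITGA2B (0.943) and USH1C (0.933).

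C1R was closest to TSTA3 (0.983), DIABLO (0.978) and DACT3 (0.977), and SERPING1 to ADGRB3 (0.981), DLK1 (0.978) and GPR27 (0.977). CFB (MAP3K12, 0.920) and C1S (PRKCH, 0.892) had less similar partners. Among members, A2M and SERPING1 ran opposite to each other over the libraries (r = -0.979), C1R and SERPING1 together (0.874), and C3 and CFB less closely (0.551). A2M and C3 had an r of -0.052: both were high in S2D30, but GIMEN held much A2M and little C3.

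**Figure D4:**
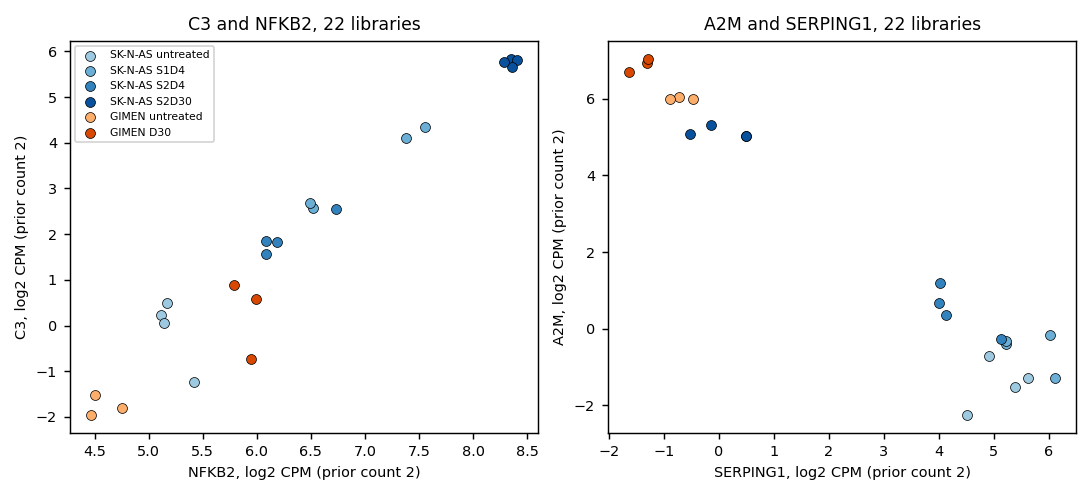
Pairs of genes over the 22 libraries, log2 CPM on both axes, coloured by group. C3 against NFKB2 (r = 0.970) follows one line over both cell lines, and A2M against SERPING1 (r = -0.979) falls from untreated SK-N-AS to GIMEN with S2D30 between them.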

How the data were processed

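RNA-seq was measured in 22 libraries of 2 neuroblastoma lines. The authors deposited 1 table of raw counts per gene symbol. The aligner, counter, genome build, annotation and strand setting are not given in the sources used here. Totals of 16456484 to 37506800 counts per library set the precision, and no pair of libraries held identical counts. Groups came from the sample labels.

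Counts were fitted with edgeR 4.0.16 (limma 3.58.1, R 4.3.3): filterByExpr with a minimum count of 10 and total of 15, TMM scaling, glmQLFit and glmQLFTest, separately for the 16 SK-N-AS and the 6 GIMEN libraries, and over all 22 for the untreated lines. P-values were adjusted by Benjamini-Hochberg over all genes tested (threshold 0.05). Standard errors are the absolute log2 fold change over the square root of F. CPM used 1 TMM scaling over 22 libraries, and likeness was taken on log2 CPM (prior count 2). Scripts were tested on simulated data. Alternatives were DESeq2 1.42.0, other scalings and filters, a replicate block and leaving out each library.

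Members and lists were chosen with earlier results of these data known. Named were all 9 members, up to 3 genes per list and comparison (largest change among those called, with at least 1 CPM and no overlap), the 3 genes most like each member, and overlapping neighbours. Not every gene this rule names is printed, and a gene named in 1 comparison is also described in others. Exon overlap and shared 75-base words came from GENCODE release 29, promoters from RefSeq (3 of 9 members matched).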

Additional observations from a re-analysis of the deposited data

Results flagged for a closer look

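In 3 of the 30 groups of 4 libraries examined for the 9 genes, 1 library lay further from the others than Dixon's 95% limit for its gap as a share of the group's range. Chance flags about 1 in 20 such groups. SERPING1 in S2D4 replicate 4 was at 35.2 CPM, with a gap of 0.917 of the range, and that library was also the highest of its group for C1R, C1S, C3 and CFB. CFB in S2D30 replicate 1 was at 12.1 CPM (gap 0.85), and A2M in S2D30 replicate 2 was at 39.5 CPM (gap 0.831).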

How the results depend on the processing

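No change of a member or named list gene that edgeR called in the main fit reversed direction under any alternative run. Differences without a call could change sign: C1S in GIMEN ranged from -0.18 to 0.36, and CFB between the untreated lines from -0.12 to 0.46. Calls of members against untreated SK-N-AS are not counted here. From S2D4 to S2D30 members called lower numbered 1 to 2, leaving out a library. That count was 1 with the replicate block and 1 with the 2 compared groups alone, since C1R was lost (edgeR adjusted p = 0.0675 with the block). Counting only calls of 1 or more log2 units in size lowered several counts. List genes lower in S1D4 numbered 0, and list genes higher from S1D4 to S2D4 numbered 20. From S2D4 to S2D30, 24 list genes were higher and 1 member lower. In GIMEN 1 member was higher, with 18 list genes higher and 7 lower. With a prior count of 0.5, r of CP with TTC8 was 0.920 (0.945 to 0.970 leaving out a library).

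Replicate numbers did not pair the samples throughout: same-numbered libraries correlated over 0.1 in 4 of 24 pairs in SK-N-AS (-0.101 to 0.293) and 0 of 3 in GIMEN. Between untreated SK-N-AS and S1D4, r was 0.274, 0.266, 0.044 and 0.293 for replicates 1, 2, 3 and 4. Untreated replicate 4 with S1D4 replicate 3 gave 0.286, so number and block of replicates cannot be told apart there. With the replicate block the CP difference from S2D4 to S2D30 was 1.73. A term for replicates 3 and 4 of untreated and S1D4, chosen after seeing the data, put C3 in S2D30 at 5.23 against untreated and that CP difference at 1.68. With counts of 0 to 8, SAA1, LCN2, and CP and C3 in untreated GIMEN are limited by depth.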
